A study of Mus musculus with 4 samples.

Results

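Single-cell RNA sequencing of sorted classical monocytes was used to describe the cells in which the transcript of the C-type lectin Cd209a was detected, a marker of the monocytes termed DCMo. The cells were chosen by that measurement: a cell was a member with at least 1 Cd209a UMI (unique molecular identifier, a tag that counts single transcripts), among cells with more than 200 detected genes, under 5% mitochondrial UMIs and a leading hashtag holding at least 70% of the hashtag UMIs. Of 8718 such cells, 666 were Cd209a-positive, 565 of 7492 in females and 101 of 1226 in males. All mice were wild-type C57BL/6 without treatment. The groups were young males of 14 weeks, old males of 27 months, young females of 15 weeks and old females of 26.5 months, with 5 mice in each. Bone marrow cells of each mouse were labelled with a hashtag antibody, pooled by sex, and sorted as Ly6G- CD11b+ CD115+ Ly6C-high cells, so each sex was a single library and sex cannot be told apart from library. P-values measure the spread between these animals. No cell barcode was shared by the libraries.

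Classical monocytes circulate, enter tissues and become macrophages or monocyte-derived dendritic cells (DCs). Bone marrow Ly6C-high monocytes arise from granulocyte-monocyte progenitors and from monocyte-dendritic cell progenitors, and those of the latter origin are known for Cd209a, for the growth factor receptor Flt3 and for MHC class II (MHCII), which presents peptides to CD4+ T cells. MHCII chains are chaperoned by the invariant chain Cd74, which cathepsins cut down to a remnant that H2-DM exchanges for peptide.

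The Cd209a counts that defined the cells are given as a description. In females, 226 members had 1 Cd209a UMI, 95 had 2 and 244 had 3 or more, with a highest count of 51. In males the numbers were 33, 17 and 51 cells, with a highest count of 20. Members of individual females numbered 68, 54, 27, 154 and 72 in the young mice and 13, 33, 51, 56 and 37 in the old. Young males had 13, 10, 15, 15 and 14 members, and old males 19, 5, 2, 3 and 5. The old males with 2 and 3 members were left out of the tests on genes, which needed 5 members per mouse. The median depth of members was 11357 UMIs in females and 4478 in males, against 10175 and 4545 in Cd209a-zero cells. A gene was therefore compared between members and the same number of Cd209a-zero cells of the same mouse, matched to them on total UMIs, whose medians were 11334 and 4484. Cells shed RNA into the droplets, and the share of cells with a Cd209a UMI in a population that should lack it was measured as background: it was 2.15% of 790 neutrophil-like female cells (exact 95% interval 1.26 to 3.42, counting error only), at a median of 25393.5 UMIs, and 2.74% of 73 female T cells (interval 0.334 to 9.55). Once all cells were thinned to 2000 UMIs, 0 of the 790 neutrophil-like cells held one, which by 3 counts of the total allows a share of up to 0.38%, and 1.37% of the T cells did (exact 95% interval 0.0347 to 7.4). In males 0 of 61 neutrophil-like cells held one, which allows up to 4.92% by 3 counts and 5.87% by the exact 95% interval. After thinning 1 of 13 male basophils held one (7.69%, exact 95% interval 0.195 to 36.0). The shares over all sorted cells were 7.54% in females and 8.24% in males at full depth, and 3.29% and 6.34% after thinning. The female shares lay above the neutrophil-like interval and within the wide T cell interval. Old female 1, at 2.58% and 0.795% after thinning, lay below the T cell shares, and at full depth it lay within the neutrophil-like interval. The male share after thinning lay below that of the 13 basophils. Among single males after thinning, old males 2, 3 and 4, at 0.926%, 0% and 4.26%, and young male 1, at 4.09%, lay below the 4.92%. Old male 5, at 5.56%, lay below the exact limit of 5.87%.

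Cd209a-positive cells made up a smaller share of the sorted monocytes in old than in young females. At 2000 UMIs per cell, 5.38%, 4.12%, 5.35%, 4.01% and 3.95% of the cells of the young females held a Cd209a UMI. In the old females the shares were 0.795%, 3.97%, 1.94%, 2.08% and 2.60%. The highest old female lay just above the lowest young female, and the other old mice lay below every young one. The mean was 4.56% ± 0.738 (SD, n = 5) in young and 2.28% ± 1.15 (SD, n = 5) in old females, a difference of -2.28 percentage points (two-sided exact permutation test, p = 0.0159, adjusted over the sexes p = 0.0317). Without thinning the means were 10.1% ± 1.05 and 5.54% ± 2.09, with no overlap (exact permutation p = 0.00794, the smallest that 5 mice against 5 allow). Median depths per mouse were 10031.5 to 14815 UMIs in the old and 8393 to 9430 in the young. Requiring a leading hashtag of 90% left a difference of -1.58 points (adjusted p = 0.135, exact permutation test), and requiring 2 UMIs of Cd209a left -1.04 points after thinning (adjusted p = 0.0952, exact permutation test) and -2.75 points without it (adjusted p = 0.0159, exact permutation test). The alternative with 2 UMIs and no thinning was chosen after seeing the data.

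In males the thinned shares were 4.09%, 7.26%, 8.76%, 11.1% and 10.1% in the young and 7.58%, 0.926%, 0%, 4.26% and 5.56% in the old, where 0 of 93 cells in old male 3 allow a share of up to 3.23%. The ranges overlapped, and the means of 8.26% ± 2.74 and 3.66% ± 3.17 (SD, n = 5 each) did not differ past the threshold (exact permutation p = 0.0635). The age difference was 2.32 percentage points less negative in females than in males after thinning (permutation p = 0.318) and 0.956 points more negative without thinning (permutation p = 0.620).

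**Figure D1:**
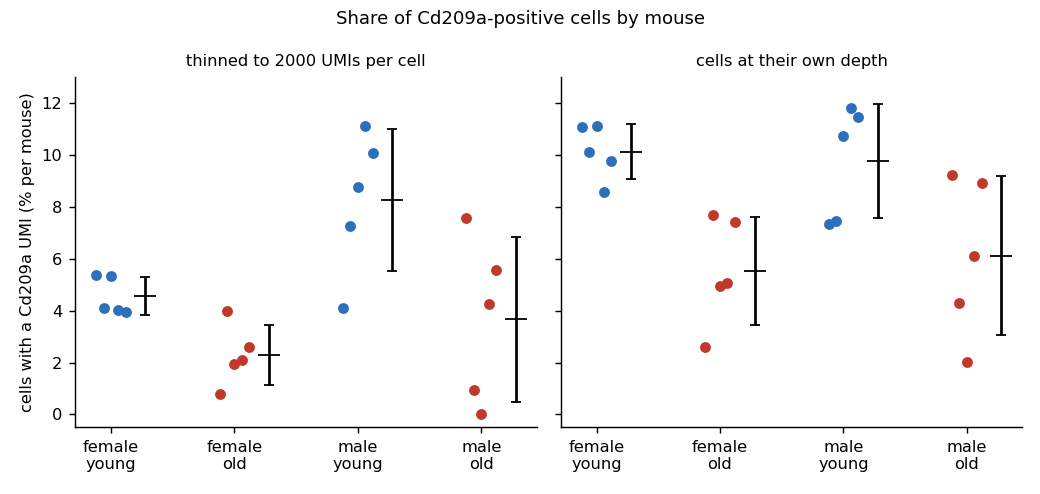
Share of sorted cells with at least 1 Cd209a UMI, in percent, for each mouse (points; blue young, red old), with mean and SD beside each group of 5 mice; left, cells thinned to 2000 UMIs, and right, cells at their own depth. Old females sit at 0.795% to 3.97% after thinning and young females at 3.95% to 5.38%.

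The label was checked against the other markers of these cells, which the rule did not use. At 2000 UMIs per cell and in the mean over 10 females, 57.8% of members held a Cd74 UMI against 32.1% of matched Cd209a-zero cells, 29.2% against 10.8% held H2-Aa and 7.28% against 0.397% held Flt3. Each of these shares was higher in members in 10 of 10 females (exact paired permutation test, adjusted p = 0.00488 for each). In 8 males the shares were 67.8% against 27.3% for Cd74 and 46.3% against 4.88% for H2-Aa (adjusted p = 0.00977 for each, exact paired permutation test), while Flt3 at 9.50% against 2.80% was higher in 4 of 8 mice and did not pass (exact p = 0.125). The markers did not coincide in every cell. At full depth, 42.8% of female and 45.5% of male members held neither a Flt3 nor an H2-Aa UMI, and 16.3% and 18.8% held both. Conversely, 32.2% of the 566 Flt3-positive female cells and 48.3% of the 60 Flt3-positive male cells held a Cd209a UMI.

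The genes of classical monocytes were detected in the members. Levels are given in CPM, UMIs per 1000000 UMIs of the cells of a mouse summed. For the levels in this paragraph the cells of all mice of a sex were pooled, unless values per mouse are stated. The summed level of 7 classical monocyte genes was 26736 CPM in female members and 29371 CPM in matched cells. Lyz2, encoding lysozyme, was the most abundant of them at 21631 and 24141 CPM. In males the list summed to 20828 CPM in members and 38875 CPM in matched cells, with Lyz2 at 16374 and 33540 CPM. The B cell genes Cd79a, Ebf1, Pax5, Ighm, Ighd and Vpreb3 were at 0 in female members, and the B cell list summed to 30.9 CPM against 37.8 CPM in matched cells, led by Cd79b at 30.7 CPM in both. Of 7 genes of conventional DCs of type 1, Cadm1 and Itgae were at 0 and Xcr1 had 1 UMI, and the list summed to 66.9 CPM against 46.5 CPM in matched cells. Clec9a, a lectin of that list that was singled out after its values were seen, had a UMI in 14.7% of 565 female members and 1.42% of 565 matched cells. The 7 plasmacytoid DC genes summed to 113 CPM against 58.5 CPM, of which the transcription factor Tcf4 made up 84.5 and 47.1 CPM, and their defining gene Siglech was found in 8 female members. The 9 neutrophil genes summed to 803 CPM in female members and 1258 CPM in matched cells, led by S100a9 at 276 and 455 CPM, and young female 5 stood apart at 6148 CPM. In males the type 1 DC list summed to 72.8 CPM in members and 23.1 CPM in matched cells, the plasmacytoid DC list to 67.1 and 15.4 CPM, and the neutrophil list to 84.3 and 334 CPM. In females the 8 T and NK cell genes summed to 7.11 CPM against 14.3 CPM, 7 macrophage genes to 50.2 against 74.9 CPM, 6 erythroid genes to 27.5 against 7.67 CPM and 7 progenitor genes, Flt3 included, to 64.1 against 28.4 CPM. When cells with a UMI of Siglech, Ccr9, Xcr1, Clec9a or of 6 defining B or T cell genes were left out of both classes, an alternative chosen after seeing the data, 573 genes differed between female members and matched cells in place of the 988 described next. H2-Aa and Cd74 then differed by 1.65 and 1.37 on the log2 scale in females and by 3.19 and 2.63 in males. The part of the other DC and neutrophil genes in the comparisons was not tested further.

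Across all genes, 552 of 6251 tested were higher in female members than in depth-matched Cd209a-zero cells of the same mice (8.83% of all genes tested) and 436 were lower (6.97%), in edgeR's quasi-likelihood test with the mouse as a block and an adjusted p under 0.05. In 8 males 64 of 851 genes were higher (7.52%) and 54 lower (6.35%). Median log2 fold changes over all genes tested were 0.00 in both sexes.

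The class II pathway rose as a group in the members. Of 14 genes for MHCII chains, their loading and their regulator Ciita, 9 could be tested in females, of which 8 rose and none fell, with a median log2 fold change of 1.14. H2-Aa, the alpha chain of I-A, ranged from 143 to 1731 CPM in members of the 10 females (median 537) and from 10.3 to 799 CPM in matched cells (median 163), and was higher in 10 of 10 mice, although the ranges across mice overlapped (log2 fold change 1.83 ± 0.16 SE, edgeR adjusted p = 1.5e-10). Cd74 ranged from 918 to 5986 CPM against 108 to 3600 CPM, also higher in each mouse (1.54 ± 0.16 SE, edgeR adjusted p = 1.0e-08). The beta chains H2-Eb1 and H2-Ab1 rose by 1.71 ± 0.19 and 1.46 ± 0.19 SE, in 10 and 9 of 10 females. The peptide exchange factor subunits H2-DMb1 and H2-DMa rose by 1.14 ± 0.10 and 0.69 ± 0.06 SE. The changes were smaller for the thiol reductase Ifi30, at 0.36, and the protease Ctss, at 0.18, while the protease Lgmn, at 0.30, did not pass. Ciita, H2-DMb2, H2-Eb2, H2-Oa and H2-Ob were too low to test.

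In males 5 of the 7 MHCII pathway genes tested rose and none fell, with a median of 1.69. H2-Aa, H2-Ab1 and H2-DMb1 were too low to be tested in the matched male cells alone, so this count and median, and the values of those 3 genes, are a description with no test. H2-Aa lay between 346 and 3705 CPM in members and between 0 and 657 CPM in matched cells of the 8 males, higher in 8 of 8 (log2 difference 3.29 ± 0.35 SE), and H2-Ab1 and H2-DMb1 differed by 3.28 ± 0.33 and 1.69 ± 0.22 SE. Cd74 and H2-DMa, tested in both classes, rose by 2.79 ± 0.25 and 1.08 ± 0.17 SE. Ifi30 and Ctss, at 0.29 and -0.12, did not pass in males. Both sexes were then fitted together, a comparison added after the data had been seen, in which the effect differed between the sexes for 32 of 4349 genes (0.736%). None of these was a gene of the class II list, although the estimate for Cd74 was 1.21 lower in females on the log2 scale (edgeR adjusted p = 0.063). Those for H2-Aa and H2-Ab1 were 1.42 and 1.79 lower. They are given with no test, because both genes were too low to be tested in the matched male cells alone.

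H2-Aa and H2-Eb1 lie side by side on chromosome 17 (GRCm38, chr17:34282744-34287823, minus strand, and chr17:34305867-34316674, plus strand). The bases before their start sites are shown because the genes moved together and because class II promoters are known for a shared module of X and Y boxes that is bound before Ciita is recruited. Each sequence gives the 140 bases up to the start site in RefSeq, GRCm38.p6, 5′ to 3′ on the strand of the gene, with matches to the Y box TGATTGG and to the letters GATGATG in capitals. No other motif was searched. The windows overlap no exon of the annotation used.
H2-Aa, chr17:34287824-34287963, minus strand: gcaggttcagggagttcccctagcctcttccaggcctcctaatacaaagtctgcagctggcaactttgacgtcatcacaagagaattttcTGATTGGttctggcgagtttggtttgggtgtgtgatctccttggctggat
H2-Eb1, chr17:34305727-34305866, plus strand: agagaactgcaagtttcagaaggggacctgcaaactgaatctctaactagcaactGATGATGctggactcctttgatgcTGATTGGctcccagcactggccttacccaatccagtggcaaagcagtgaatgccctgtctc
The Y box began 50 bases before the start of H2-Aa and 61 bases before that of H2-Eb1, whose GATGATG began 85 bases before the start. Searched on both strands in the 250 bases before each start, TGATTGG was found in 8.38% of 27025 genes and in 7 of the 11 genes of the class II list that had a window (H2-Aa, H2-Eb1, H2-Eb2, H2-DMb1, H2-DMb2, H2-Oa and H2-Ob). GATGATG was found in 3.42% of genes and in 3 of the 11 (H2-Eb1, H2-DMb1 and H2-DMb2). A match is a description of the letters and not of binding.

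Genes of the DC programme were raised alongside. Of 24 genes in that list, 16 could be tested in females, of which 11 rose and 1 fell, with a median log2 fold change of 0.95. Flt3, Cd7, Kmo and Dpp4 were too low to be tested in matched cells alone and entered through the members, so for these 4 the values are given with no test, and the count and the median are a description. Flt3 ranged from 16.8 to 53.8 CPM in members of the 10 females and from 0 to 8.11 CPM in matched cells, with no overlap across mice (fitted log2 difference 3.59 ± 0.26 SE). Cd7, an immunoglobulin family receptor better known on lymphocytes, was at 26.3 to 192 CPM in members and at 0 to 7.87 CPM in matched cells, 5 of whose 10 sums held no Cd7 UMI (fitted log2 difference 5.18 ± 0.27 SE). Cd7 was in 15.6% of female members and 1.24% of matched cells. The kynurenine monooxygenase gene Kmo (2.45 ± 0.22 SE), the peptidase Dpp4 (1.66 ± 0.20), the transcription factor Bcl11a (1.40 ± 0.11), the lectin Clec10a (1.30 ± 0.10) and the corepressor Cbfa2t3 (1.12 ± 0.10) were each higher in 10 of 10 females. Tmem176b, Tmem176a, the NF-kB subunit Relb and Syngr2 rose by 0.97, 0.94, 0.59 and 0.41, although Relb did not pass without old female 3 or young female 4. Id2, an inhibitor of DNA binding, fell by 0.43 on the log2 scale. The DC transcription factors Irf4 and Zbtb46, the chemokine receptor Ccr7 and Itgax, encoding CD11c, were too low to test.

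In males only 2 DC programme genes reached the tests, of which Tmem176b, which entered through the members, differed by 1.38 ± 0.25 SE. For Flt3 the male members lay between 0 and 155 CPM and the matched cells between 0 and 41.0 CPM, so the ranges overlapped, and members were higher in 7 of 8 mice. Cd7 was at 68.6 to 209 CPM in male members and at 0 to 34.8 CPM in matched cells, and these ranges did not overlap. Among the 10 genes with the largest rise in females that were higher in every mouse were further Slamf7, a SLAM family receptor (2.78 ± 0.30 SE), the transcription factor Runx2 (2.5 ± 0.21), Kctd14 (1.62 ± 0.13) and the Foxo1 corepressor Fcor (1.58 ± 0.20), of which Slamf7, Runx2 and Fcor likewise entered through the members and are a description. The number of mice in which each was higher among males was 8 of 8 for Slamf7 and Fcor, 7 of 8 for Runx2 and 6 of 8 for Kctd14.

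In females, most genes tested of the mature Ly6C-high monocytes and all of the neutrophil-like list were lower in the members. All 10 neutrophil-like monocyte genes fell in females, with a median of -1.46: the granule proteases Elane (-1.95 ± 0.21 SE), Prtn3 (-1.26 ± 0.11) and Ctsg (-1.02 ± 0.14), the myeloperoxidase Mpo (-1.80 ± 0.22), the calprotectin subunits S100a9 and S100a8 (-1.90 ± 0.47 and -1.85 ± 0.28), the membrane protein Ms4a3 (-1.44 ± 0.21) and the granule protein Nkg7 (-1.48 ± 0.29), with smaller changes for Srgn and for Mif, which was called in 4 of 10 fits with a single mouse left out. Without the mouse as a block S100a8 and S100a9 did not pass (edgeR adjusted p = 0.35 and 0.58), and S100a9 was at -0.84 without young female 4 (edgeR adjusted p = 0.053) and at -3.84 without young female 5. Elane ranged from 214 to 1523 CPM in members and from 1265 to 3689 CPM in matched cells, lower in 9 of 10 females. Neutrophil-like cells were themselves deep, with the median of 25393.5 UMIs given above, and the part of the makeup of the matched cells in these differences was not tested. In males, of 2 genes of that list tested, Prtn3 fell (-0.96 ± 0.24 SE, edgeR adjusted p = 0.0067).

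Of 16 mature Ly6C-high monocyte genes, 15 were tested in females, 10 fell and 3 rose (Ccr2, Wfdc17 and Ccl6), and in males 8 of 13 were called lower and none higher, Chil3 among the 8 only through the matched cells. Chil3, a chitinase-like protein of classical monocytes, ranged from 174 to 2037 CPM in female members and from 454 to 3903 CPM in matched cells, lower in 10 of 10 mice (-1.72 ± 0.11 SE, edgeR adjusted p = 4.2e-13). In males Chil3 was at 0 to 74.6 CPM in members and at 633 to 2359 CPM in matched cells, with no overlap (fitted log2 difference -5.49 ± 0.27 SE, given with no test because Chil3 was too low to be tested in male members alone). The matrix proteoglycan Vcan (-1.19), haptoglobin Hp (-0.79), fibronectin Fn1 (-0.33), Ly6c2, which encodes Ly6C (-0.31), and Lyz2 (-0.22) fell in females. Hp, Fn1, Ly6c2 and Lyz2 fell in males as well, with log2 fold changes of -1.82, -0.78, -0.65 and -1.12. With a leading hashtag of 90%, Ly6c2 in females was at -0.18, Lyz2 at -0.02 and Vcan at -0.54, and none of the 3 passed. Further genes among the 10 largest falls that had 1 sign in every female were the lectin Fcnb (-1.60), the glucocorticoid-activating enzyme Hsd11b1 (-1.47), Dmkn (-1.47), the receptor Trem3 (-1.41), the lipopolysaccharide-binding protein Lbp (-1.30) and the protease inhibitor Slpi (-1.03), of which Fcnb and Hsd11b1 were too low to be tested in members alone and are a description.

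Among Ly6C-low transition genes the fractalkine receptor Cx3cr1 rose in females (0.90 ± 0.08 SE) and differed by 0.95 ± 0.24 in males, where it entered through the members, and Spn, encoding CD43, and Cd9 rose in females, while Ear2 and Cebpb fell. Cebpb, a transcription factor of Ly6C-low monocyte formation, was lower in 10 of 10 females and 8 of 8 males (-0.50 ± 0.05 and -1.25 ± 0.12 SE). Of the other monocyte and DC fate factors, Tcf4, Bcl11a, Relb and Spi1 rose in females, Spi1 in 6 of 10 fits with a single mouse left out, and Irf8, at 0.07 ± 0.06 SE, did not pass (edgeR adjusted p = 0.43). Of 12 genes of G2 and mitosis 8 rose in females and none fell, among them the topoisomerase Top2a (0.39 ± 0.07 SE). In males 5 of 8 were called higher, of which Top2a, Ube2c and H2afx entered through the members, so that count is a description. With a leading hashtag of 90% Top2a, at 0.24 in females, did not pass. All 10 S phase genes fell in females, such as the replicative helicase subunits Mcm2 (-0.74) and Mcm6 (-0.58), with a median of -0.41. Of 15 MHC class I, peptide transport and immunoproteasome genes tested in females 8 rose, with a median of 0.17, and none of 9 passed in males. Of 10 interferon-stimulated genes tested Irf7, Usp18, Oasl2 and Bst2 rose in females. Of 8 other C-type lectins tested 1, Clec10a, rose and Clec4a2, Clec5a and Clec12a fell, and the chemokine receptors Ccr2 and Cx3cr1 rose. Of 8 interferon-gamma inducible genes tested in females 1 rose, Irgm1 by 0.53, and 1 fell, AW112010 by 0.42 on the log2 scale. Over all genes tested 8.83% rose and 6.97% fell. AW112010 was at 0.029 with a leading hashtag of 90% and lost its call in 5 of 8 alternatives.

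**Figure D2:**
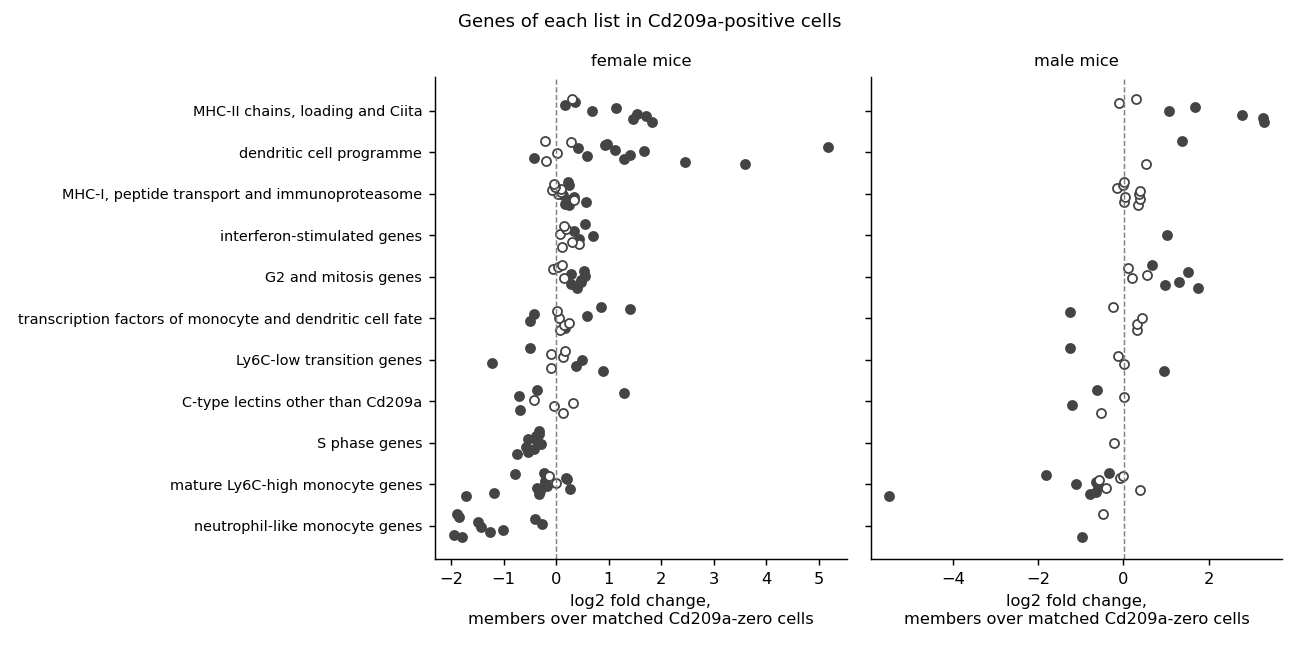
Each point is a gene of the list named at the left, placed by its log2 fold change in Cd209a-positive cells over depth-matched Cd209a-zero cells of the same mice, in 10 females (left) and 8 males (right); filled points have an edgeR adjusted p under 0.05. In females the class II genes tested lie to the right of 0. DC genes reach 5.18 for Cd7 and include Id2 at -0.43, and neutrophil-like monocyte genes lie to the left, down to -1.95 for Elane. Genes that passed the low-count filter through a single class are a description with no test, filled or not. Cd7 and Flt3 in females and H2-Aa, H2-Ab1 and Chil3 in males are among them.

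In females the levels of these genes followed the number of Cd209a UMIs in a cell, which is given as a description over pooled cells whose depths were alike. In females with 0 (matched), 1, 2 and 3 or more Cd209a UMIs, H2-Aa was at 172, 253, 570 and 1072 CPM. Cd74 rose along the same order at 839, 1188, 2323 and 3902 CPM, and Cd7 at 1.75, 28.7, 55.8 and 115 CPM. Flt3 stood at 2.82, 18.8, 38.6 and 51.5 CPM and Chil3 at 1154, 593, 308 and 108 CPM. Cells just inside the rule, with 1 UMI, lay between the Cd209a-zero cells and the cells with 3 or more for each of these genes. The share of females' members with neither a Flt3 nor an H2-Aa UMI was 57.1%, 46.3% and 28.3% at 1, 2 and 3 or more Cd209a UMIs. In males, on 33, 17 and 51 members, H2-Aa was at 123, 850, 527 and 1607 CPM, Cd74 at 830, 3449, 2359 and 7750 CPM, Flt3 at 9.61, 41.6, 98.7 and 72.4 CPM and Chil3 at 1241, 65.4, 0 and 3.81 CPM. None of these 4 kept 1 order over all 4 male groups, and Cd7, at 3.84, 29.7, 110 and 278 CPM, did.

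**Figure D3:**
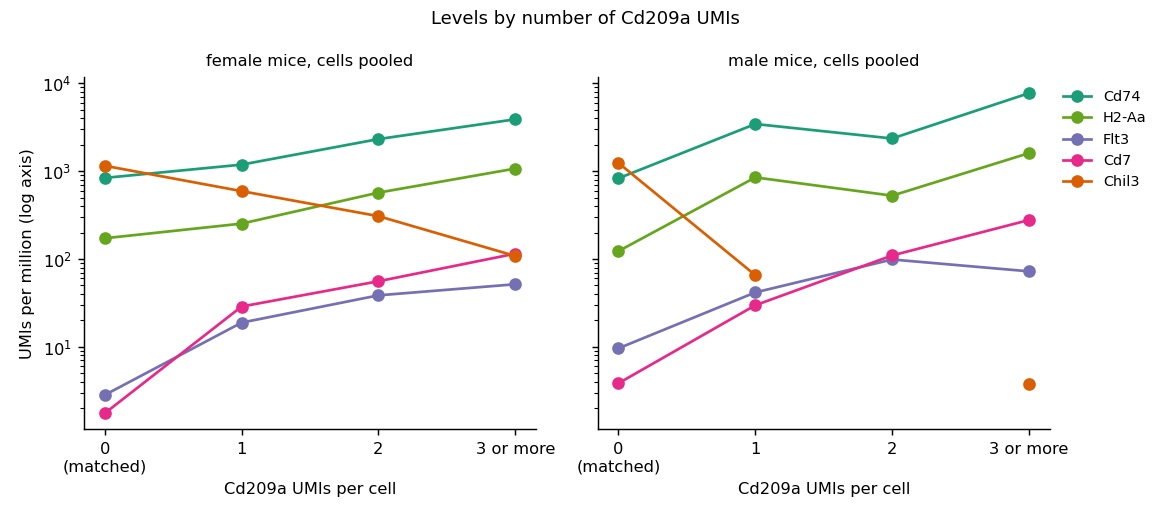
CPM (log axis) of Cd74, H2-Aa, Flt3, Cd7 and Chil3 in pooled female (left) and male (right) cells, by the number of Cd209a UMIs per cell; a gene without a UMI has no point. In females Chil3 declines from 1154 to 108 and H2-Aa climbs from 172 to 1072.

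The female library held counts of 6 surface antibodies, a readout of protein that the rule did not use. Members carried less Ly6C and more CD11c than depth-matched Cd209a-zero cells. Ly6C stood at 450 ± 46.6 antibody UMIs per cell in members and 588 ± 55.8 in matched cells (mean ± SD of 10 mice), lower in 10 of 10 females (log2 difference -0.39, exact paired permutation p = 0.00195, adjusted p = 0.00586). CD11c, an integrin of DCs, stood at 5.96 ± 2.91 against 2.91 ± 1.47, higher in 10 of 10 (1.02, exact paired permutation p = 0.00195, adjusted p = 0.00586). The MHCII antibody was at 56.8 ± 51.4 against 39.7 ± 26.0 and higher in 7 of 10 females, a difference of 0.26 on the log2 scale that did not pass (exact paired permutation p = 0.223). CD115 was higher in 7 of 10 (0.20, exact p = 0.0332, adjusted p = 0.0664), and Flt3(CD135) and CD11b differed by 0.04 and -0.15 and did not pass (exact p = 0.652 and 0.119). With medians over cells in place of means Ly6C passed and CD11c, at 0.30, did not. With a leading hashtag of 90% the differences were -0.21 for Ly6C and 0.85 for CD11c, and neither passed (exact paired permutation test, adjusted p = 0.17 for both).

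**Figure D4:**
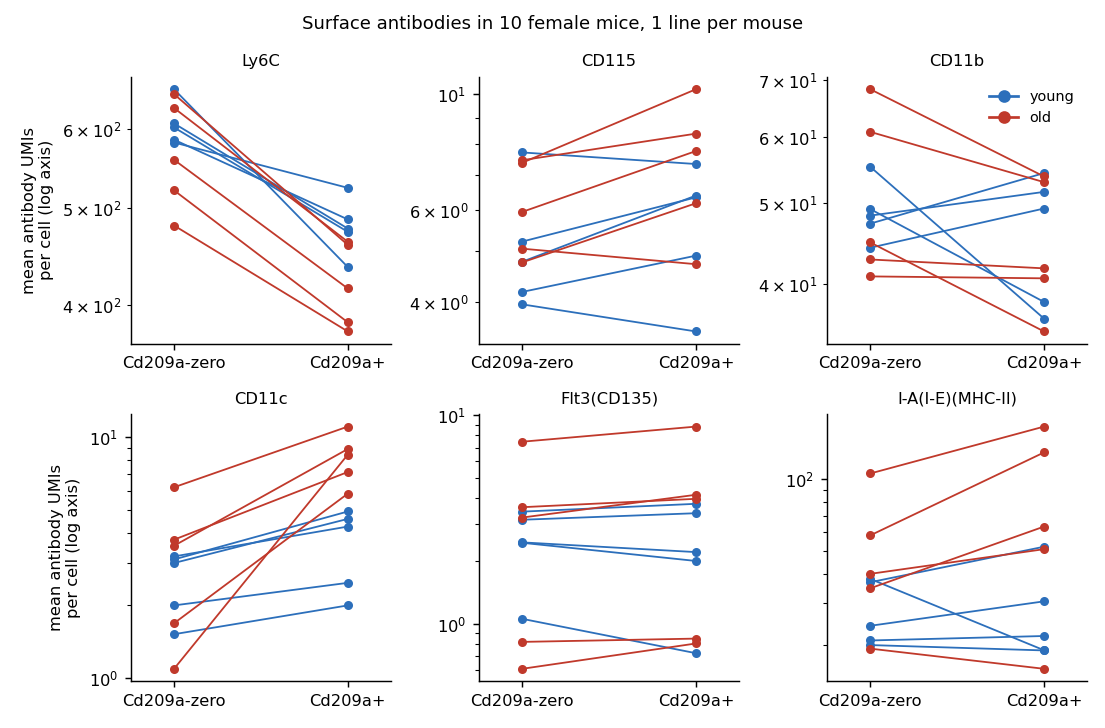
Mean antibody UMIs per cell (log axes) of 6 surface antibodies in depth-matched Cd209a-zero cells and in Cd209a-positive cells, with a line per female mouse (blue young, red old). Each of the 10 lines falls for Ly6C and climbs for CD11c.

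With age, the Cd209a-positive cells of females gained class II transcripts. Of 6340 genes tested between old and young female members, 65 were higher in the old (1.03%) and 68 lower (1.07%), 2.1% in either direction (edgeR adjusted p under 0.05). Of the MHCII pathway genes 6 of 9 tested rose and none fell, with a median log2 fold change of 1.08 against 0.00 over all genes tested. Cells of old females were deeper, with members' median UMIs per mouse of 13739 to 17561 against 8398 to 10363.5, and their hashtags were less pure, with a median leading share of 85.0% to 89.6% in members against 90.3% to 93.5%. The age comparison was repeated with a leading share of at least 90%, which left 337 members and 8 genes called: H2-Aa, H2-Ab1, H2-Eb1, Cd74, H2-DMb1, H2-K1 and AW112010, higher in the old, and Fos, lower. Summed lists of cell type genes differed as well, given as a description. In members, macrophage genes were at 29.9 to 46.1 CPM in the old and 47.9 to 77.3 CPM in the young. Medians were 43.8 against 82.6 CPM for progenitor genes and 20562.5 against 28898 CPM for classical monocyte genes. Those of neutrophil and B cell genes went the other way, at 90.5 against 61.9 CPM and 32.4 against 28.4 CPM. For each list given by its median, the ranges of old and young mice overlapped. Neutrophil genes ranged from 42.8 to 838 CPM in the old and from 55.0 to 6148 CPM in the young. B cell genes ranged from 0 to 38.3 CPM and from 23.5 to 42.5 CPM. The part of these lists in the age differences was not tested.

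H2-Aa was at 1705, 1526, 478, 599 and 1731 CPM in members of the 5 old females and at 143, 244, 215, 596 and 262 CPM in those of the young. Young female 4 lay above old female 3 and just below old female 4, and the other mice did not overlap (log2 fold change 1.95 ± 0.32 SE, edgeR adjusted p = 0.0019). H2-Eb1 was at 695, 761, 155, 229 and 1021 CPM in the old and 31.3, 83.5, 73.9, 304 and 77.9 CPM in the young (2.12 ± 0.44 SE, edgeR adjusted p = 0.0099). Again young female 4 was the exception among the young.

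H2-Ab1 was at 1166, 1036, 308, 435 and 1279 CPM in the old and at 71.3, 131, 222, 434 and 251 CPM in the young (1.84 ± 0.35 SE, edgeR adjusted p = 0.0054). Cd74 was at 5986, 4953, 1671, 2713 and 5208 CPM in the old and at 918, 1426, 1492, 2376 and 1536 CPM in the young (1.38 ± 0.24 SE, edgeR adjusted p = 0.0026). For both genes a single young mouse, female 4, reached into the range of the old. H2-DMb1 was at 581, 484, 295, 361 and 604 CPM in the old and at 186, 230, 195, 229 and 223 CPM in the young, without overlap (1.08 ± 0.15 SE, edgeR adjusted p = 0.00052). Ifi30 rose by 0.35 ± 0.06 SE, while H2-DMa and Ctss, at 0.19 and -0.20, did not pass.

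**Figure D5:**
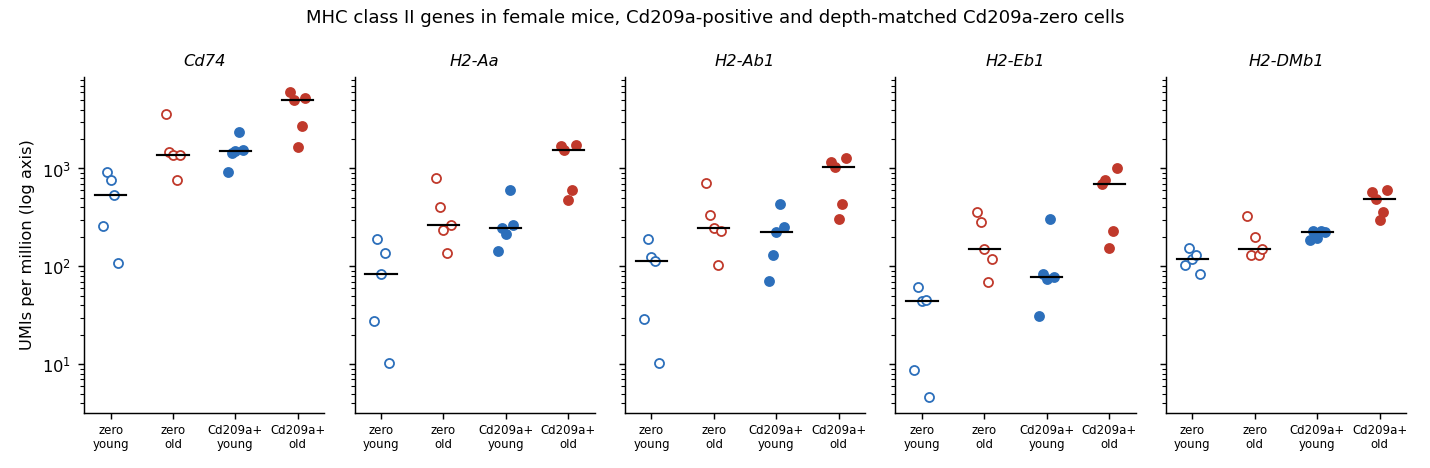
CPM (log axis) of 5 class II pathway genes in each female mouse (points) with the median of 5 mice (bar), for depth-matched Cd209a-zero cells (open) and Cd209a-positive cells (filled) of young (blue) and old (red) mice. H2-DMb1 in Cd209a-positive cells is at 186 to 230 in the young and 295 to 604 in the old.

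An age difference in class II genes was present in the matched Cd209a-zero cells. There H2-Aa was higher in the old by 1.82 ± 0.41 SE, H2-Eb1 by 2.37 ± 0.39, H2-Ab1 by 1.67 ± 0.41 and Cd74 by 1.74 ± 0.36 on the log2 scale, each with an edgeR adjusted p under the threshold, while H2-DMb1, at 0.54 ± 0.18, did not pass. Of 6251 genes 89 were called higher (1.42%) and 80 lower (1.28%) in the old, 2.7% in either direction. The difference of the age effect between members and matched cells, tested as an interaction, was -0.14 ± 0.33 SE for H2-Aa, -0.52 ± 0.31 for Cd74 and 0.45 ± 0.19 for H2-DMb1. It passed the threshold for 0 of 6920 genes in females in edgeR and for 0 in DESeq2, with 406 genes at an unadjusted p under 0.05 in edgeR. A larger age effect in 1 of the classes was not detected, which does not show that the effects were alike. Of all cells with an H2-Aa UMI after thinning, Cd209a-positive cells were a smaller part in the old, given as a description with no test: 1.37% to 12.1% per old female (median 5.13%, 31 of 688 cells) and 13.2% to 21.2% per young female (median 18.2%, 41 of 263 cells). In males these shares were 0% to 33.3% (median 2.70%) in the old and 30.0% to 77.8% (median 44.4%) in the young.

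Of 17 DC programme genes tested with age in female members, 1 rose and none fell, with a median of 0.07, where 2.1% of all genes tested were called. That gene was Cd7, at 33.7, 102, 73.8, 109 and 192 CPM in the old and 45.0, 55.7, 60.5, 40.0 and 26.3 CPM in the young (1.36 ± 0.25 SE, edgeR adjusted p = 0.0042), with old female 1 inside the range of the young. Flt3, at 16.8, 29.9, 48.2, 34.7 and 20.7 CPM in the old and 42.5, 40.2, 53.8, 30.6 and 41.2 CPM in the young, overlapped and did not pass (-0.27 ± 0.22 SE, edgeR adjusted p = 0.68). Kmo, Clec10a, Bcl11a and Dpp4 lay between 0.15 and 0.55 and did not pass.

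Class I genes rose with age in female members, 7 of 15 tested with a median of 0.28: H2-K1, H2-D1, H2-Q7 and H2-T22, the immunoproteasome subunits Psmb8 and Psmb9 and the peptide transporter Tap1. H2-K1 was at 2000, 1683, 1264, 1271 and 1466 CPM in the old and at 954, 1010, 1088, 1023 and 977 CPM in the young, without overlap (0.58 ± 0.10 SE, edgeR adjusted p = 0.0019). In matched Cd209a-zero cells 9 of 15 rose with a median of 0.31, H2-K1 by 0.55 ± 0.10 SE. Class I heavy chains are close in sequence, so reads may be shared among them. AW112010, which is inducible by interferon gamma, was at 434, 81.7, 89.4, 142 and 103 CPM in the old and at 48.8, 35.6, 37.0, 54.3 and 37.8 CPM in the young, again without overlap (1.60 ± 0.31 SE, edgeR adjusted p = 0.0062), and rose by 1.97 ± 0.22 SE in matched cells.

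Of the genes named for the size of their age difference, Ifitm1, an interferon-inducible membrane protein, was at 391, 21.9, 28.4, 109 and 181 CPM in the old and 8.76, 13.9, 13.4, 8.96 and 1.15 CPM in the young (fitted log2 difference 3.79 ± 0.61 SE). The prostaglandin dehydrogenase Hpgd (-1.63 ± 0.23 SE) and the neutrophil surface protein Cd177 (-1.36 ± 0.23) fell. The chemokine Ccl3 (-2.35 ± 0.45 SE), the peptidoglycan receptor Pglyrp1 (-1.91 ± 0.48) and Skint3 (-1.33 ± 0.31) were lower in the old. Ifitm1 in the young and Ccl3, Pglyrp1 and Skint3 in the old rest on few UMIs and passed the low-count filter through the other age, so these 4 are a description with no test. Hpgd was at 25.3, 47.8, 55.3, 52.0 and 28.6 CPM in the old and at 126, 124, 289, 103 and 134 CPM in the young, without overlap. It fell in matched cells as well, by 2.31 on the log2 scale. The early response genes Fos, Jun and Fosb fell by 0.90, 0.85 and 1.23, with Fos falling by 0.77 and Jun by 1.23 in matched cells. Of the mature Ly6C-high genes Fn1, Ccr2, Lyz2, Cybb and Ccl6 fell, 5 of 15, and Clec4a2, Clec4a3 and Clec12a fell among 11 other lectins tested. Top2a (0.53 ± 0.11 SE), Birc5 and Cdc20 rose, 3 of 12 genes of G2 and mitosis. All 3 lost the call with a leading hashtag of 90% and without cells of another type's defining gene. Over the alternatives Top2a was as low as 0.088, Birc5 as low as 0.29 and Cdc20 as low as 0.33. With a single mouse left out, Pglyrp1 and Skint3 were called in 5 of 10 fits, Birc5, Tap1 and H2-D1 in 6, Psmb8 in 7, H2-Q7 in 8, Cdc20 and Clec12a in 3 and Fn1 and Ccr2 in 2.

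On the surface, CD11c was the antibody that differed with age in female members. It was at 8.92, 8.45, 5.82, 7.16 and 11.1 UMIs per cell in the old and 4.57, 2.00, 2.48, 4.91 and 4.25 in the young, without overlap (log2 difference 1.24, exact permutation p = 0.00794, adjusted p = 0.0476). In matched Cd209a-zero cells the difference was 0.15 (exact permutation p = 0.762), and the difference of these differences was not tested. Over all Cd209a-zero cells CD11c was at 3.90 ± 2.00 UMIs per cell in the old and 2.57 ± 0.848 in the young (mean ± SD of 5 mice), with overlap. The MHCII antibody was at 166, 63.1, 15.9, 50.7 and 129 UMIs per cell in old members and 19.0, 19.0, 21.9, 51.9 and 30.6 in young, with old female 3 below every young mouse, and did not pass (exact permutation p = 0.103). Ly6C was lower in old members by 0.20 (exact permutation p = 0.0397, adjusted p = 0.119). With medians over cells the CD11c difference was 0.20 and with a leading hashtag of 90% it was 0.97, and it passed in neither. Without young female 2 or old female 5 it was 1.05 and 1.13 and did not pass (exact permutation test, adjusted p = 0.0952 and 0.0714).

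In males, with 3 old and 5 young mice, edgeR called 0 of 995 genes between old and young members (62 at an unadjusted p under 0.05) and DESeq2 called 1. H2-Aa was at 1019, 584 and 3705 CPM in the old and at 1321, 3135, 761, 895 and 346 CPM in the young (0.30 ± 0.58 SE), and Cd74 differed by 0.80 ± 0.44 SE. The ranges overlapped. These differences were smaller than the 1.95 and 1.38 of the females, and the difference between the sexes was not tested. For the age effect of members minus that of matched cells in males, 1 gene of 1221 passed (0.0819%), the actin gene Actb, named after its values were seen (-0.96 ± 0.18 SE, edgeR adjusted p = 0.022), and it passed in 2 of 8 fits with a single mouse left out. The shares of members with a marker UMI at 2000 UMIs did not pass between ages in either sex: for H2-Ab1 they were 23.5% to 76.9% in old and 8.82% to 18.8% in young females, without overlap (exact permutation p = 0.00794, adjusted p = 0.0595).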

How the data were processed

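Libraries were made with a droplet 3′ kit from pools of sorted bone marrow monocytes, with 10 hashtagged mice per sex. The deposited matrices hold UMI counts per gene and cell, with hashtag and antibody counts as further features. The authors' processing notes name STAR 2.5.1, Cell Ranger 4.0.0 and mm10, while the matrix headers name other Cell Ranger versions that differ between the sexes. Hashtags were assigned to mice by the authors' deposited hashtag table. Cells were filtered as stated in the report, and barcodes with a mixed hashtag were left out, with HTODemux (Seurat 5.3.0) as an alternative. Of barcodes that passed the gene and mitochondrial filters, the hashtag rule kept 7492 of 9898 in females and 1226 of 1227 in males. Whether the barcodes left out were doublets was not tested. Within-mouse doublets were not called. Each Cd209a-positive cell was matched to the Cd209a-zero cell of the same mouse nearest in UMIs, counts were summed per mouse and class, and edgeR 4.0.16 quasi-likelihood tests were fitted over all genes that passed its low-count filter, with Cd209a removed and the mouse as a block because both classes came from the same animals. P-values were adjusted by Benjamini and Hochberg. DESeq2 1.42.0 was an alternative. Levels are UMIs per 1000000 of a mouse's summed cells. The sums of cell type lists in members against matched cells, and the levels by number of Cd209a UMIs, pool the cells of each sex. Member UMIs per female mouse totalled 237559 to 1898145. Shares of cells were compared over mice by exact permutation tests after thinning to 2000 UMIs, which left out 4 female and 58 male cells. Intervals and tests on reads of 1 library do not cover capture differences between pools.

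The genes named were Cd209a, Cd74, H2-Aa and Flt3, the class II and DC lists, the 10 largest differences each way between classes with 1 sign in every female, the 5 largest each way with age in females, and the 3 most abundant genes of each other list. Actb, Birc5, Cdc20, Clec5a, Clec9a, Csf1r, Cybb, Ear2, Fn1, Fos, Fosb, Hp, Jun, Mcm2, Mcm6, Mif, Mpo, Ms4a3, Nkg7, Psmb8, Psmb9, S100a8, S100a9, Spn, Tap1, Tcf4, Top2a and H2-Q7 were named after their values were seen. Ccl6, Cd9, H2-T22, Oasl2, Srgn, Ube2c, Usp18 and Wfdc17 were likewise named after the fact, because they were called within their lists. The members and the gene lists were chosen with earlier results of these data known. Promoter sequences are from RefSeq, GRCm38.p6, and gene positions and exons are from the GENCODE annotation of GRCm38.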

Additional observations from a re-analysis of the deposited data

Results flagged for a closer look

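Of 79 groups of 5 mice of 1 sex and age examined for a mouse far from the other 4, 10 had one, and chance gives about 1 in 20. All 10 were groups of females, and some of the 79 were groups of males. Old female 1, which had 13 members, was highest for AW112010 at 434 CPM (81.7 to 142 in the others), for Chil3 at 2037 CPM (187 to 492) and for S100a8 at 682 CPM (17.3 to 49.2). Young female 5 was highest for S100a8 at 1505 CPM (10.1 to 26.3). Young female 4 was highest for H2-Aa at 596 CPM (143 to 262) and for H2-Eb1 at 304 CPM (31.3 to 83.5). Young female 3, with 27 members, was highest for Hpgd at 289 CPM (103 to 134) and for Ccl3 at 50.4 CPM (15.5 to 25.0). Young female 2 was lowest for Ly6c2 at 1704 CPM (1945 to 2029). Young female 1 was lowest in the share of members with an H2-Eb1 UMI at 4.41% (11.1% to 12.5%).

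The difference of members from matched cells differed between females and males for 5 named genes, in edgeR's test of both sexes together. The female log2 difference was above the male one by 3.91 for Chil3 (adjusted p = 3.3e-07), 1.06 for Hp (adjusted p = 0.0041), 0.92 for Lyz2 (adjusted p = 1.9e-06) and 0.78 for Cebpb (adjusted p = 0.00018), which were lower in members of both sexes. For Top2a, higher in members of both, it was -1.34 (adjusted p = 0.0054). In males Chil3 was too low to be tested in members alone and Top2a in matched cells alone, so for these 2 the difference is a description. Female members had a median of 11357 UMIs and male members 4478, and sex and library cannot be told apart. The age effect of Actb in males was lower in members than in matched cells by 0.96 on the log2 scale, a log2 difference of -0.96 (edgeR adjusted p = 0.022) that passed in 2 of 8 fits with 1 mouse left out.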

How the results depend on the processing

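The lower share of Cd209a-positive cells in old females passed with other thinning depths, without thinning (with 1 Cd209a UMI, or with 2, the latter chosen after seeing the data), with HTODemux singlets and without any 1 mouse. It did not pass with a leading hashtag of 90% (-1.58 points) or with 2 Cd209a UMIs after thinning (-1.04 points). In males it passed unthinned with 2 Cd209a UMIs (-3.01 points, chosen after seeing the data) and without young male 1 or old male 1, within a range of -5.64 to -3.68 over 1 mouse left out. Why calls were lost was not tested. The stricter hashtag left 337 female members, and 2 UMIs left 339.

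Genes called between members and matched cells numbered 988 in females and 118 in males with the mouse as a block, and 893 and 83 with no replicate block. In females DESeq2 called 558, the stricter hashtag 222, all Cd209a-zero cells 1693 and leaving out cells with another type's defining gene 573, and in males DESeq2 called 66 and all Cd209a-zero cells 203. Of 133 genes that differed with age in females, the count was 272 without the low-count filter, 8 with the stricter hashtag, 35 with 2 Cd209a UMIs and 52 without cells of another type's defining gene. It was 61 to 185 with 1 mouse left out, lowest without young female 3 and at 74, 72, 80, 80, 84, 86 and 83 without old females 2, 4 and 5 and young females 1, 2, 4 and 5. For the female interaction, 0 genes became 17 without the filter, 1 with the stricter hashtag, 4 with HTODemux, 1 with all Cd209a-zero cells and 0 to 7 with 1 mouse left out, 7 without young female 4. Male age gave 1 gene in DESeq2, 4 without the filter and 0 to 1 with 1 mouse left out (1 without old male 1). The male interaction of 1 gene became 0 in DESeq2, 4 without the filter, 0 with the stricter hashtag, 2 with HTODemux, 3 with all Cd209a-zero cells, 3 without cells of another type's defining gene and 0 to 3 with 1 mouse left out. With 2 Cd209a UMIs, 1 old male was left, and the male age fits could not be made.

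Of 6 antibodies 2 differed between classes, 5 as a share of antibody UMIs (CD11b turned to 0.14), 1 by medians, 0 with the stricter hashtag and 4 against all Cd209a-zero cells. With age, 1 antibody passed, 0 by medians, 0 with the stricter hashtag and 0 to 1 with 1 mouse left out (0 without young female 2 or old female 5). With the stricter hashtag the age difference was -0.12 for CD115 and 0.22 for CD11b, both turned. CD11b also turned without young female 3 (0.03), young female 4 (0.01) or old female 4 (0.0495), and Flt3(CD135) without young female 2 (-0.13) or old female 4 (-0.20), the range of Flt3(CD135) with 1 mouse left out being -0.20 to 0.67 and that of CD11b -0.11 to 0.0495. Marker shares with age passed for 0 markers in females, 4 unthinned, 4 with the stricter hashtag and 0 to 4 with 1 mouse left out (4 without old female 3). In males 1 passed unthinned and 0 to 3 with 1 mouse left out (3 without young male 4). The Flt3 share turned to 0.38 points in females unthinned and in males to -1.19 without young male 4 and -3.83 without old male 2, in a range up to 6.17. For named genes, 1274 of the results with 1 mouse left out kept direction and call and 100 lost the call. Under the other alternatives 885 kept both, 128 lost the call and 1 turned, AW112010 between classes with the stricter hashtag (0.029). Depth limits the rare transcripts: Flt3 and Cd7 in matched cells rest on few UMIs.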
